A study of Mus musculus with 24 samples.

Results

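The NKR-P1 receptors and their Clec2 ligands are a family of lectin-like membrane proteins through which natural killer (NK) cells read the surface of other cells and of each other. Here 6 genes were followed, Klrb1a, Klrb1b, Klrb1c, Klrb1f, Clec2d and Clec2i, chosen by their symbols, out of 45237 genes in the deposited count table. All 6 passed the filter on low counts and were tested, among 17097 genes in all.

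The NKR-P1 proteins are encoded by the Klrb1 genes and the Clr proteins that they bind by the Clec2 genes, and the genes of receptors and ligands lie side by side. Inhibitory NKR-P1B, the product of Klrb1b and called NKR-P1D in C57BL/6 mice, binds Clr-b, the product of Clec2d, which most hematopoietic cells carry and which some tumor cells lose. Activating NKR-P1F, encoded by Klrb1f, binds Clr-g, encoded by Clec2i, and activating NKR-P1C, encoded by Klrb1c, is the NK1.1 antigen used to recognize and sort NK cells in this strain.

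RNA was sequenced from NK cells sorted from the spleens of wild-type C57BL/6J mice, young adult females unless stated otherwise in the study's methods, that were left untreated or had received tumor cells intravenously. RMA is a mouse T cell lymphoma line that does not stimulate NK cells directly, although the study found NK cells activated as either tumor grew. RMA-KR is its derivative, grown from 1 clone. It lacks B2m and with it surface MHC class I, and carries the NKG2D ligand Rae1-beta from a lentiviral vector. The methods section of the study describes magnetic bead depletion of cells carrying surface proteins of T cells, B cells, granulocytes or red blood cells. It does not say whether this preceded the sort for sequencing. In the sort it describes, cells negative for T and B cell surface proteins were taken as positive for NKp46, NK1.1 or both, stained in the same color, so the product of Klrb1c was part of the gate.

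The 24 libraries fall into 7 groups. Untreated control mice gave 4 libraries. Mice bearing RMA gave 3 libraries at day 2 (RMA early), 3 at day 4 (RMA intermediate) and 3 at day 9 (RMA late), and mice bearing RMA-KR gave 3 at day 2 (RMA-KR early), 5 at day 7 (RMA-KR intermediate) and 3 at day 14 (RMA-KR late). Tumor and day cannot be told apart between the models at the intermediate and late stages. The labels do not state that each library came from a separate mouse. A figure legend of the study gives 3 mice per group for sequencing at the late stages and in the controls, of which 4 libraries are used here, and no such statement was found for the earlier stages. The p-values measure the spread between these libraries, which for the earlier stages may be technical.

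Each library held between 5138651 and 14863500 counted reads, with a median of 10489204, of which 12881 to 45214 fell on the 6 genes. Levels are given as CPM, the read counts of a gene scaled to a common library size, after TMM scaling, which corrects for differences in composition between libraries. A floor of 3 counts corresponded to 0.208 to 0.554 CPM, for counting error only, and every member lay above it in all 24 libraries.

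Before any comparison, 4 libraries stood apart from the other 20 in genes outside the family. Control 4 and RMA-KR intermediate 3, 4 and 5 had summed levels of 14 immediate early genes, which cells switch on within minutes of a stimulus, of 1297, 1253, 1391 and 1277 CPM, against 4370.15 to 9868 CPM in the others. The same 4 libraries had the highest sums of 6 markers of type 1 innate lymphoid cells (ILC1), at 156, 169.5, 244 and 199.7 CPM against 12.8 to 82.9 CPM, and the lowest sums of 9 NK cell markers, at 18551, 17744, 17093.5 and 16207 CPM against 18824.5 to 33075 CPM. These libraries were kept, and the results for the members are given with and without them where that moves a call or a direction.

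The sorted cells carried the markers of NK cells. All 9 of the NK markers found in the table, of 10 listed, had counts in every library, led by Gzma at a mean of 9982 CPM. Of the markers of other cells, the ILC1 list was led by Il7r (21.8 CPM), the T cell list by Trbc1 (286 CPM), the B cell list by Cd22 (10.7 CPM), the plasma cell list by Igha (3.37 CPM), the macrophage, monocyte and dendritic cell list by Cd68 (22.3 CPM), the granulocyte list by Csf3r (0.360 CPM), the red blood cell list by Alas2 (0.546 CPM) and the platelet list by Itga2b (3.63 CPM). Some defining markers of other cells were at 0 in many of the 24 libraries, Cd3e in 12, Cd4 in 17, Cd8a in 18, C1qa in 22 and S100a8 in 21. Others were present, with Cd3d (8.36 CPM), Trac (10.01 CPM), Trbc1, Trbc2 and Cd68 at 0 in none and Cd3g (10.3 CPM) at 0 in 1. RMA itself is a T cell line, and NK cells are known to transcribe the T cell receptor beta constant genes without rearranging them.

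All members lie on mouse chromosome 6 within 0.577 Mb of the mm10 assembly, with receptors and ligands intermixed. From left to right, Klrb1a (ENSMUSG00000030361) spans 128609227 to 128623533 on the minus strand, Klrb1c (ENSMUSG00000030325) 128778485 to 128789215 and Klrb1b (ENSMUSG00000079298) 128813706 to 128826331, also on the minus strand. The other 3 lie on the plus strand, with Clec2i (ENSMUSG00000030365) at 128887588 to 128898167, Klrb1f (ENSMUSG00000030154) at 129045901 to 129057464 and Clec2d (ENSMUSG00000030157) at 129180615 to 129186534.

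**Figure D1:**
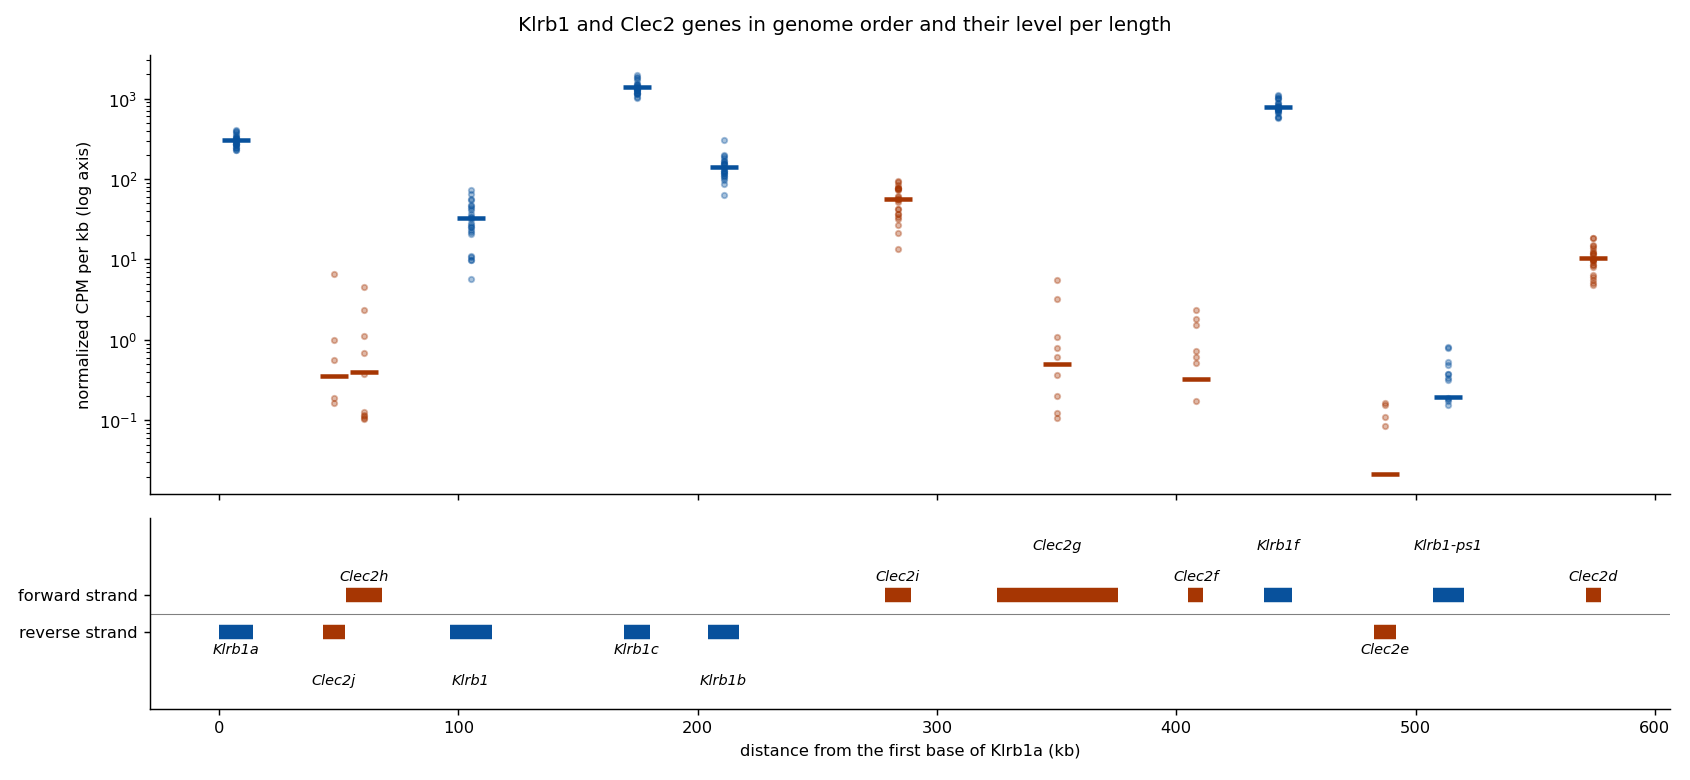
Levels of the Klrb1 and Clec2 genes along the locus. The horizontal axis places genes by distance in kb from the first base of Klrb1a, the vertical axis gives CPM per kb of transcript on a log scale, points are libraries above 0, bars are means over the 24 libraries, blue marks Klrb1 and brown Clec2 genes, and boxes in the lower panel show each gene by strand (Clec2l is not drawn). Klrb1c stood highest with a mean of 1377 CPM per kb and Clec2d lowest of the members with 10.5.

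Some of the receptor genes are close in sequence, which bears on how they can be counted. To show the closest pair of members, the promoter windows of the activating receptor gene Klrb1c and of Klrb1a are given from RefSeq on build GRCm38.p6, from 250 bases before to 50 bases after the start, at chr6:128788592-128788891 and chr6:128622885-128623184, both read 5′ to 3′ on the minus strand. Capitals mark bases that differ between these windows, or that are missing from the other, within the stretch that can be aligned.
Klrb1c: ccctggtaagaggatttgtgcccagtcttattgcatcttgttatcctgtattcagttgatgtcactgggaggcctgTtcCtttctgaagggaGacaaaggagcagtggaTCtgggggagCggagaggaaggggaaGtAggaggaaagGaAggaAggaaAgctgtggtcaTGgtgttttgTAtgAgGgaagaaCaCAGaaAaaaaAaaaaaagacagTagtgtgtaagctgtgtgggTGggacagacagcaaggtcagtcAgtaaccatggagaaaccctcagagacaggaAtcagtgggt
Klrb1a: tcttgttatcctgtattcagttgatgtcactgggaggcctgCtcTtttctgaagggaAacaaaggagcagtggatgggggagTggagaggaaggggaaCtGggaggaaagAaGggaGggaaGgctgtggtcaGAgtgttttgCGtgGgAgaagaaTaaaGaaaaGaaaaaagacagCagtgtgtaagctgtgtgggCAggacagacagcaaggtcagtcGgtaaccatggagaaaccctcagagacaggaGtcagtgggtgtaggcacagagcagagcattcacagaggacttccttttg
Over that stretch 236 of 265 aligned positions were the same in Klrb1a and Klrb1c (89.1%). The other pairs of receptor members could be aligned with 53.3 to 62.2% identity, over 199 to 299 positions. Receptor with ligand members had 50.7 to 61.3% identity, over 55 to 260 positions, so these percentages rest on unlike lengths. The windows of inhibitory Klrb1b (chr6:128826266-128826565, minus strand) and activating Klrb1f (chr6:129045651-129045950, plus strand), 2 receptors of opposite function, had the highest identity of these member pairs, 62.2%. The window of Klrb1, a related gene outside the 6 members, had 63.0% identity with that of Klrb1b and 62.7% with that of Klrb1f. The Klrb1b and Klrb1f windows share an uninterrupted run of 22 bases, in capitals here, at bases 193 to 214 of the Klrb1b window and 183 to 204 of the Klrb1f window.
Klrb1b: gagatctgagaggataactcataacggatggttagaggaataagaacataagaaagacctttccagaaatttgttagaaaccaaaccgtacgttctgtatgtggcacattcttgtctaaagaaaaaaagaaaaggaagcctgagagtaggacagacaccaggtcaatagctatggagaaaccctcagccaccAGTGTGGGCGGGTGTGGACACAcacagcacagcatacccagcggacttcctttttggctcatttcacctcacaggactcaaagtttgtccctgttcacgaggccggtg
Klrb1f: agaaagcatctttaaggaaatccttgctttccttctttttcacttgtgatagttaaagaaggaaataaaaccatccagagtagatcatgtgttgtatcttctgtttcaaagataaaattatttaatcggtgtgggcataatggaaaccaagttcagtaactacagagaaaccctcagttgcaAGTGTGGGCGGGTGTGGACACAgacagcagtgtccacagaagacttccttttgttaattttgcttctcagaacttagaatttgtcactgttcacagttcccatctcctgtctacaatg
Among 32851 RefSeq promoter windows this run was found in 3, all of them of Klrb1b or Klrb1f. All 6 members had a window in that table. The 6 letters TGTGGT, the core bound by RUNX factors, occurred on either strand in the windows of 2 of 6 members, Klrb1a and Klrb1c, and in 16.8% of all windows. The ETS core AGGAAG occurred in 4 of 6, the receptor genes, and in 35.4% of all windows, and the T-box letters TCACAC in 0 of 6 and 14.5%. A match describes the letters of the window only.

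Transcripts of related genes can share reads. Of all stretches of 50 bases, the length of the reads, in the annotated transcripts of Klrb1b, 27.2% also occur in a transcript of another gene, compared with 17.0% for Klrb1c, 9.9% for Klrb1a, 4.1% for Clec2i, 2.0% for Clec2d and 0 of 2115 for Klrb1f. For Klrb1b and Klrb1c most of these lie in Gm44511, a gene model on the same strand that shares 599 of the 2228 exon bases of Klrb1b and 413 of the 2961 of Klrb1c. Reads from shared stretches cannot be assigned to 1 gene, so the counts of Klrb1b, Klrb1c and Klrb1a are uncertain to that extent, and Gm44511 was not analysed here. Clec2i overlaps BC035044 on the opposite strand, and Klrb1f overlaps Gm43992 and Gm44000 there, in each case without sharing exon bases. The strand setting of the counting is not given in the sources used here.

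The ligand gene Clec2d, whose product Clr-b engages the inhibitory receptor, was the least abundant member. It had 6.1, 14.2, 22.3 and 13.8 CPM in the controls, 14.4, 5.77 and 10.3 at RMA early, 22.3, 12.4 and 11.2 at RMA intermediate and 11.8, 18.2 and 11.98 at RMA late. At the 3 RMA-KR stages it had 10.4, 6.82 and 9.82, then 7.7, 15.5, 11.9, 16.8 and 17.7, then 12.3, 7.38 and 14.6 CPM. The 4 control libraries alone covered nearly the whole range, with control 1 among the lowest and control 3 among the highest of all 24, and no tumor group lay apart from them.

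The other ligand gene, Clec2i, encodes Clr-g. Its level was 64.9, 62.3, 80.6 and 83.8 CPM in the controls, 84.1, 80.9 and 59.2 at RMA early and 81.3, 102 and 100.5 at RMA-KR early. Later it was 61.1, 39.9 and 14.6 at RMA intermediate, 56.9, 40.6 and 36.8 at RMA late, 35.1, 46.5, 83.2, 68.01 and 46.4 at RMA-KR intermediate and 91.96, 23.1 and 29.3 at RMA-KR late. Every RMA intermediate and RMA late library therefore had less Clec2i RNA than every control library, whereas the RMA-KR late group was split between 1 library at the level of the early groups and 2 far under it.

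Among the receptor members, inhibitory Klrb1b varied most from library to library. It had 137, 178, 181 and 194 CPM in the controls, 197, 149 and 183 at RMA early, 228, 140.1 and 159.8 at RMA intermediate and 161, 145 and 231 at RMA late. Under RMA-KR it had 129, 100.4 and 113 at the early stage, 127, 181, 145, 211 and 120.1 at the intermediate stage and 357, 72.9 and 134 at the late stage. The RMA-KR early libraries all lay under the controls, and the RMA-KR late group held both the highest and the lowest of the 24 values.

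Activating Klrb1c, the NK1.1 gene, was the most abundant member. It had 1505, 2154, 2331 and 1969.6 CPM in the controls, 1892, 1679.8 and 1811 at RMA early, 1479, 1304 and 1481 at RMA intermediate and 1698, 1673 and 1630.0 at RMA late. Under RMA-KR it had 1782, 1759 and 1959.7 at the early stage, 2394, 2544, 1643, 1578 and 1459.8 at the intermediate stage and 1734, 1506 and 1324 at the late stage. The 3 RMA intermediate libraries lay under all controls, and the RMA-KR intermediate group was split, with libraries 1 and 2 the highest of all 24 and libraries 3, 4 and 5, which stood apart in immediate early genes, lower.

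Activating Klrb1f, the receptor for Clr-g, had 444, 346, 430.5 and 399 CPM in the controls, 448, 666 and 430.4 at RMA early, 425, 445 and 416 at RMA intermediate and 615, 593 and 616 at RMA late. Under RMA-KR it had 470.2, 529.9 and 526 at the early stage, 353, 507, 484, 482 and 460.0 at the intermediate stage and 643, 357 and 474 at the late stage. The RMA late libraries lay close together and above every control library, as did the RMA-KR early libraries, while RMA early and RMA-KR late each held 1 library above the rest of their group.

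Klrb1a encodes NKR-P1A, counted among the activating receptors. It had 225, 262, 305 and 206 CPM in the controls, 173, 228 and 247 at RMA early, 286, 206 and 219 at RMA intermediate and 296, 278 and 239 at RMA late. Under RMA-KR it had 197, 173 and 206 at the early stage, 221, 252, 244, 241 and 203 at the intermediate stage and 183, 184 and 189.7 at the late stage. The RMA-KR late libraries lay within a few CPM of each other, under every control and every RMA late library.

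**Figure D2:**
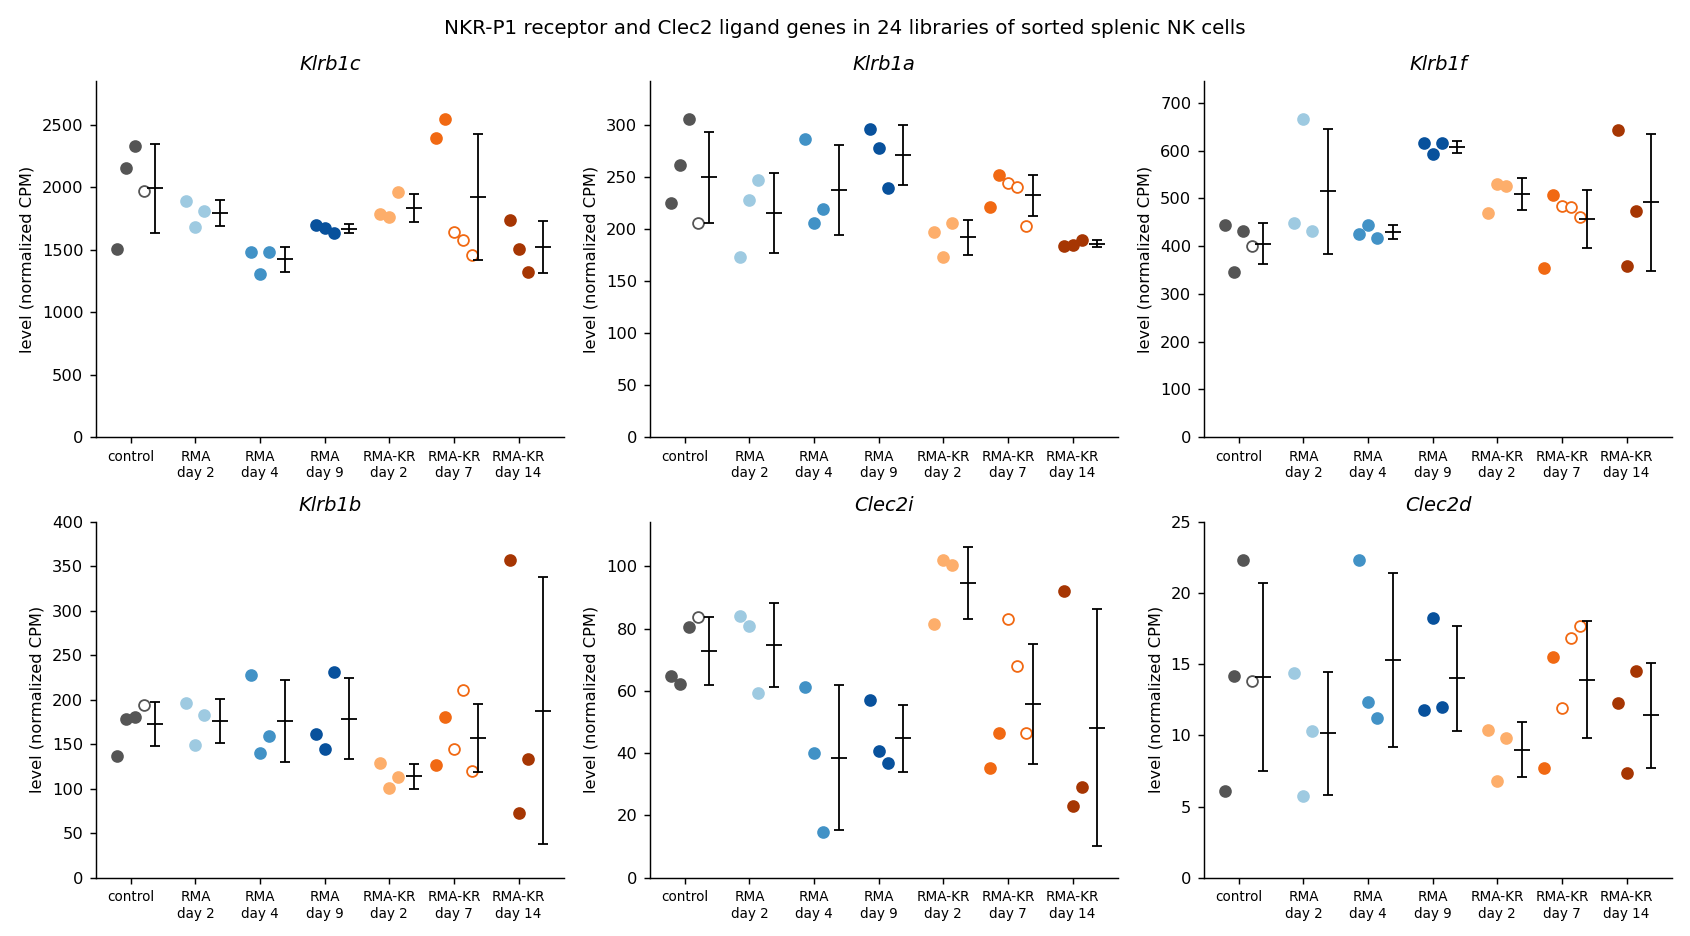
Level of each member in every library, in TMM-scaled CPM on the vertical axis, by group on the horizontal axis. Points are libraries, open points the 4 libraries with low immediate early genes, and bars the group mean with SD; the 3 RMA late libraries sit above the 4 controls for Klrb1f, and the 3 RMA intermediate libraries below them for Klrb1c and Clec2i.

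With the groups ordered by mean level, the ranges of neighbors overlapped for every member. Klrb1f ran from 405 ± 43.4 in the controls to 608 ± 12.7 at RMA late. Klrb1c ran from 1421 ± 102 at RMA intermediate to 1989.8 ± 355 in the controls. The other receptors ran from 186 ± 3.49 at RMA-KR late to 271 ± 28.7 at RMA late for Klrb1a, and from 114 ± 14.2 at RMA-KR early to 188 ± 149.8 at RMA-KR late for Klrb1b. The ligand Clec2i ran from 38.5 ± 23.3 at RMA intermediate to 94.6 ± 11.6 at RMA-KR early, and Clec2d from 9.01 ± 1.92 at RMA-KR early to 15.3 ± 6.1 at RMA intermediate. With each library left out in turn, a choice made after seeing the data, the highest and the lowest group were the same in 24 of 24 cases for Klrb1f, and not in some for each other member. Without RMA-KR late 1 the RMA-KR late mean was 103.3 CPM for Klrb1b and 26.2 CPM for Clec2i, the lowest group for both, and without RMA intermediate 3 the RMA intermediate mean of Clec2i was 50.5 CPM.

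To set the levels of different members side by side, they were taken per kb of transcript, using the authors' median transcript length. Per kb, and as mean ± SD over 24 libraries, Klrb1c had 1377 ± 256 CPM, Klrb1f 796 ± 149, Klrb1a 301 ± 50.8, Klrb1b 142 ± 48.6, Clec2i 56.3 ± 22.7 and Clec2d 10.5 ± 3.76. These median lengths differ between genes, from 0.605 kb for Klrb1f to 1.28 kb for Klrb1c, and per kb of all annotated exon bases the means were 595, 238, 143, 74.3, 19.7 and 10.5 CPM, in the same order. Of the summed per-kb level of the 4 receptor genes, activating Klrb1c made up 52.5% on average and Klrb1f 30.6%, Klrb1a 11.6% and inhibitory Klrb1b 5.40%. By group the share of Klrb1c was highest in the controls, 57.2 ± 4.58%, and lowest at RMA late, 46.2 ± 0.819%. That of Klrb1f was lowest in the controls, 25.1 ± 4.65%, and highest at RMA late, 35.6 ± 0.548%. The other groups lay between these, with RMA-KR intermediate nearest the controls for both, at 55.0 ± 7.34% and 28.5 ± 5.44%.

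The members differed in how much they varied between libraries. The highest level was 1.77 times the lowest for Klrb1a, 1.92 times for Klrb1f and 1.95 times for Klrb1c, against 3.87 times for Clec2d, 4.90 times for Klrb1b and 7.01 times for Clec2i. Without RMA-KR late 1 it was 3.16 times for Klrb1b, and without RMA intermediate 3 it was 4.42 times for Clec2i. Their coefficients of variation over 24 libraries were 16.8%, 18.8% and 18.6% for Klrb1a, Klrb1f and Klrb1c and 35.8%, 34.2% and 40.4% for Clec2d, Klrb1b and Clec2i.

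Of the other Klrb1 and Clec2 genes only Klrb1, which encodes inhibitory NKR-P1G, another receptor for Clr-g, was above the floor in all 24 libraries. Its level ran from 4.52 CPM in RMA-KR intermediate 5 to 58.5 CPM in RMA-KR late 1, a fold of 12.95, or 7.45 without RMA-KR intermediate 5, which is among the 4 libraries that stood apart, with 22.4, 33.3, 45.2 and 20.4 CPM in the controls. Clec2e, Clec2f, Clec2g, Clec2h, Clec2j, Clec2l and Klrb1-ps1 reached at most 0.341, 1.21, 5.11, 4.07, 3.71, 1.84 and 0.458 CPM, and each was at 0 in 12 to 20 libraries. Of these, Clec2f, Clec2j and Klrb1-ps1 are annotated as pseudogenes. Klrb1, Clec2g, Clec2h and Clec2l passed the filter, and in edgeR's test 0 of these 4 passed an adjusted p of 0.05 in any comparison.

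The comparisons ask whether the tumor that the NK cells ignore and the tumor that stimulates them are accompanied by different levels of these receptors and ligands, and at which stage. Each used the quasi-likelihood test of edgeR, with p-values adjusted over all 17097 genes by Benjamini and Hochberg's method, and a gene was called when its adjusted p was under 0.05. Over 11 pairwise comparisons and 66 tests of members, edgeR called 0, and 9 had an unadjusted p under 0.05, where 5.91 to 17.2% of all genes tested had one in each comparison. In these comparisons 2.63 to 20.7% of all genes tested did not overlap between the groups, the background for each statement here that the libraries of a gene lie apart. In bulk RNA, fewer cells of a type and less RNA per cell cannot be told apart, and a p that misses the threshold does not show that levels did not differ.

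At day 2 of RMA, the libraries overlapped the range of the controls for every receptor and ligand gene. In RMA early against control, edgeR called 0 of 6 members and 0% of all genes tested, and DESeq2 called 0 members. Unadjusted, 0 members and 7.04% of all genes had a p under 0.05 by edgeR. The log2 fold changes ran from -0.48 for the ligand Clec2d to 0.35 for the receptor Klrb1f. The Klrb1f value rested on RMA early 2, without which it was 0.14, and the Clec2d value was -0.79 without RMA early 1 and -0.14 without control 3.

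In RMA-KR early against control, edgeR called 0 of 6 members, beside 0.0994% of all genes tested, with 1 at an unadjusted p under 0.05, and DESeq2 called 0. For 3 of 6 members the groups did not overlap, beside 10.5% of all genes tested, with Klrb1a and Klrb1b under all controls and Klrb1f above. For Klrb1a the groups all but touched, at 205.5 CPM in RMA-KR early 3 and 205.8 CPM in control 4, which is among the 4 libraries that stood apart. The Klrb1b log2 fold change was -0.60 ± 0.34 (SE, n = 3 and 4 libraries; adjusted p = 0.643), the Klrb1a change -0.38 ± 0.16 (adjusted p = 0.54; -0.25 without control 3) and the Klrb1f change 0.33 ± 0.17 (adjusted p = 0.603). Platelet marker sums, led by Itga2b, were 13.5 to 17.5 CPM at RMA-KR early and 7.87 to 23.4 CPM at RMA early against 0 to 1.87 CPM in the controls, with 0 of 3 markers called. Macrophage, monocyte and dendritic cell marker sums, led by Cd68, were 46.3, 33.9 and 41.2 CPM at RMA-KR early and 8.85 to 19.96 CPM in the controls, with 0 of 6 tested markers called. The median log2 fold change at RMA-KR early was 4.27 for the platelet and 2.71 for the macrophage list, beside 0.0034 for all genes. The part of either in these differences was not tested.

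At the intermediate stage of RMA, day 4, the NK1.1 gene Klrb1c and the ligand gene Clec2i were lower in each of the 3 libraries than in any control, short of the threshold, and 20.7% of all genes tested did not overlap in this comparison. The highest RMA intermediate library and the lowest control were close, at 1481 and 1505 CPM for Klrb1c and 61.1 and 62.3 CPM for Clec2i. edgeR called 0 of 6 members in RMA intermediate against control, where 2.35% of all genes tested were called, and 2 members had an unadjusted p under 0.05. The Klrb1c log2 fold change was -0.49 ± 0.17 (95% interval -0.84 to -0.13, adjusted p = 0.177) and the Clec2i change -0.92 ± 0.43 (interval -1.80 to -0.04, adjusted p = 0.299). The median of all genes tested was -0.29. DESeq2 called 1 member, Klrb1c, at -0.50 with an adjusted p of 0.0484, and edgeR called it at -0.51 (adjusted p = 0.0462) when genes under 10 counts in any library were left out. Over 8 alternatives of tool, scaling, filter, design and libraries the adjusted p of Klrb1c ran from 0.0422 to 0.143, and with each library of the 2 groups left out in turn from 0.0792 to 0.545. Clec2i moved from -1.39 without RMA intermediate 1 to -0.50 without RMA intermediate 3. T cell marker sums were 329, 308.7 and 281.5 CPM in these libraries and 391, 341.5, 388 and 414 CPM in the controls, with 0 of 8 tested markers called and a median log2 fold change of -0.36 for the 8, near that of all genes, and their part was not tested.

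At the intermediate stage of RMA-KR, day 7, the libraries again overlapped the range of the controls for every member. edgeR called 0 of 6 and 0.0175% of all genes tested, and DESeq2 called 0 members. Before adjustment, 0 members and 5.91% of all genes had a p under 0.05 by edgeR. The log2 fold changes ran from -0.39 for Clec2i to 0.18 for Klrb1f, all with an adjusted p of 0.999. This group and the controls hold the 4 libraries that stood apart, and without them, an alternative chosen after seeing the data, the Klrb1c value turned from -0.05 to 0.33 ± 0.15 (adjusted p = 0.733), the Clec2i change was -0.75 ± 0.52 (adjusted p = 0.735), the Clec2d change went from -0.02 to -0.27 and the Klrb1f change was 0.10, as it was without control 2 alone.

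At the late stage of RMA, day 9, the activating receptor gene Klrb1f lay 1.502-fold above control (95% interval 1.17 to 1.93). edgeR called 0 of 6 members in RMA late against control, with 1 at an unadjusted p under 0.05, where 2.66% of all genes tested were called. The Klrb1f log2 fold change of 0.59 ± 0.17 had an adjusted p of 0.0735, the smallest of any member in any pairwise comparison, and all 3 libraries lay above all 4 controls, where 18% of all genes tested did not overlap. DESeq2 called 1 member, Klrb1f, at 0.58 with an adjusted p of 0.0292, and edgeR called it at 0.63 (adjusted p = 0.027) when fitted to the libraries of these 2 groups alone. Its adjusted p ran from 0.0263 to 0.201 over 8 such alternatives, and from 0.108 to 0.232 with each library of the 2 groups left out in turn, where the change was 0.49 to 0.63. The Clec2i change was -0.70 ± 0.42 (adjusted p = 0.472), with all 3 libraries under all controls, and the median of all genes tested was -0.18.

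T cell marker sums, led by Trbc1, were 596, 503.6 and 467 CPM in the RMA late libraries and 391, 341.5, 388 and 414 CPM in the controls, with 0 of 8 tested markers called in that comparison. The median log2 fold change of those 8 was 0.52 beside -0.18 for all genes, with Cd3d, Trac and Trbc2 present in all 24 libraries and Cd4 and Cd8a at 0 in 17 and 18. Macrophage, monocyte and dendritic cell marker sums were 39.6, 34.98 and 52.6 CPM against 19.96, 16.9, 8.85 and 13.7 CPM, with 0 of 6 tested markers called. Platelet marker sums were 6.62, 5.68 and 10.3 CPM against 0.554, 0.579, 0 and 1.87 CPM, with 0 of 3 called. The medians of the macrophage and platelet lists were 0.996 and 3.56. The part of these in the Klrb1f difference was not tested.

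At the late stage of RMA-KR, day 14, 1 member of 6 did not overlap the controls, near the share of all genes tested, 13.6%. This was Klrb1a, lower in each of the 3 libraries than in any control and short of the threshold. edgeR called 0 of 6 members in RMA-KR late against control and 1.22% of all genes tested, and DESeq2 called 0 members. Without adjustment, 2 members and 14.2% of all genes had a p under 0.05 by edgeR. The log2 fold change of Klrb1a was -0.43 ± 0.16 (adjusted p = 0.269), and that of Klrb1c -0.39 ± 0.17 (adjusted p = 0.332), with overlapping groups. With single libraries left out the Klrb1a change ran from -0.52 to -0.32, and the others moved more. The Klrb1c change was -0.25 without RMA-KR late 3 and -0.50 without control 1. Without RMA-KR late 1 the Klrb1b change went from 0.12 to -0.75, the Clec2i change from -0.60 to -1.49 and the Klrb1f change from 0.28 to 0.03. Without RMA-KR late 2 the same changes were 0.54, -0.23 and 0.50. The Clec2d change of -0.31 was -0.56 without control 1 and 0.00023 without control 3. edgeR called 0 of 6 members with any library of the 2 groups left out. Macrophage, monocyte and dendritic cell marker sums were 80.4, 72.2 and 37.0 CPM in these libraries against 8.85 to 19.96 CPM in the controls, and T cell marker sums 505.8, 414.8 and 420 CPM against 341.5 to 413.7 CPM, with 0 of 6 and 0 of 8 tested markers called. The median log2 fold change was 0.84 for the macrophage list but -0.37 for the T cell list, whose sum is mostly Trbc1, beside -0.18 for all genes, and their part was not tested.

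**Figure D3:**
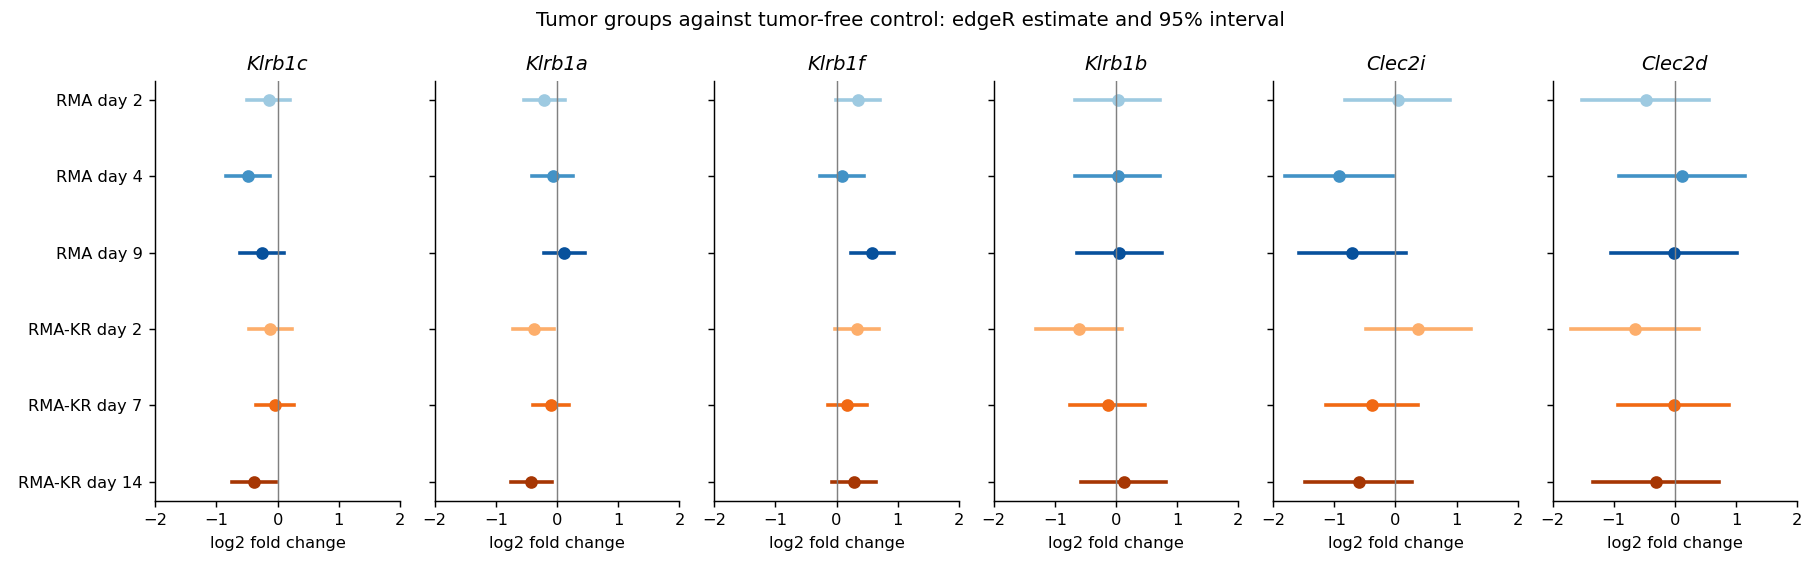
Log2 fold change of each member against control on the horizontal axis, for the 6 tumor groups. Points are edgeR estimates and bars 95% intervals; the intervals of Klrb1f at RMA late (0.23 to 0.95) and of Klrb1c at RMA intermediate (-0.84 to -0.13) lie to 1 side of 0, as do those of Klrb1a at RMA-KR early and RMA-KR late, Klrb1c at RMA-KR late and Clec2i at RMA intermediate, and no member passed the adjusted threshold.

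Set against each other at the late stage, 0 of 6 members passed the adjusted threshold, and only Klrb1a did not overlap between the models. In RMA late against RMA-KR late edgeR called 0 of 6 members and 0% of all genes, and DESeq2 called 0. An unadjusted p under 0.05 was found for 1 member, Klrb1a, and for 7.31% of all genes. All 3 RMA late libraries had more Klrb1a RNA than all 3 RMA-KR late libraries, with a log2 difference of 0.55 ± 0.17 (adjusted p = 0.655), and 9.13% of all genes tested did not overlap. Sums of immediate early genes were lower in all RMA late libraries (4370 to 5628 CPM) than in all RMA-KR late libraries (6361 to 7933 CPM), sums of NK markers higher (27893 to 33075 against 20657 to 27466.5 CPM), sums of platelet markers higher (5.68 to 10.3 against 0.771 to 4.27 CPM) and sums of plasma cell markers lower (0 to 2.10 against 2.49 to 18.6 CPM), with 0 of these genes called. The medians of these lists were -0.65, 0.29, 1.77 and -3.58 on the log2 scale, beside 0.06 for all genes, and their part was not tested. At day 2, in RMA early against RMA-KR early, edgeR called 0 members and 0.339% of all genes tested, and DESeq2 called 0 members. Here 0 members and 12.3% of all genes had an unadjusted p under 0.05 by edgeR. Of the members Klrb1b did not overlap there, beside 12.8% of all genes, with the 3 RMA libraries above the 3 RMA-KR libraries.

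In RMA intermediate against RMA-KR intermediate edgeR called 0 members and 0.643% of all genes tested, and DESeq2 called 0 members. With edgeR 1 member, Klrb1c, and 14.2% of all genes had an unadjusted p under 0.05. The Klrb1c log2 difference was -0.44 ± 0.17 (adjusted p = 0.314), and the groups overlapped. The libraries that stood apart bear on this result. Without RMA-KR intermediate 3, 4 and 5 and control 4, a choice made after seeing the data, 2 RMA-KR libraries were left, the difference was -0.80 ± 0.15 and edgeR called Klrb1c (adjusted p = 0.0226). The adjusted p ran from 0.0226 to 0.35 over 8 alternatives, and from 0.229 to 0.585 with each library of the 2 groups left out in turn. T cell marker sums were 281.5 to 329 CPM in the RMA libraries and 374 to 478 CPM in the RMA-KR libraries, and granulocyte marker sums 0 and 0.139 to 1.93 CPM, with 0 markers of either list called and a median of -0.89 for the T cell list beside -0.23 for all genes, and their part was not tested.

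**Figure D4:**
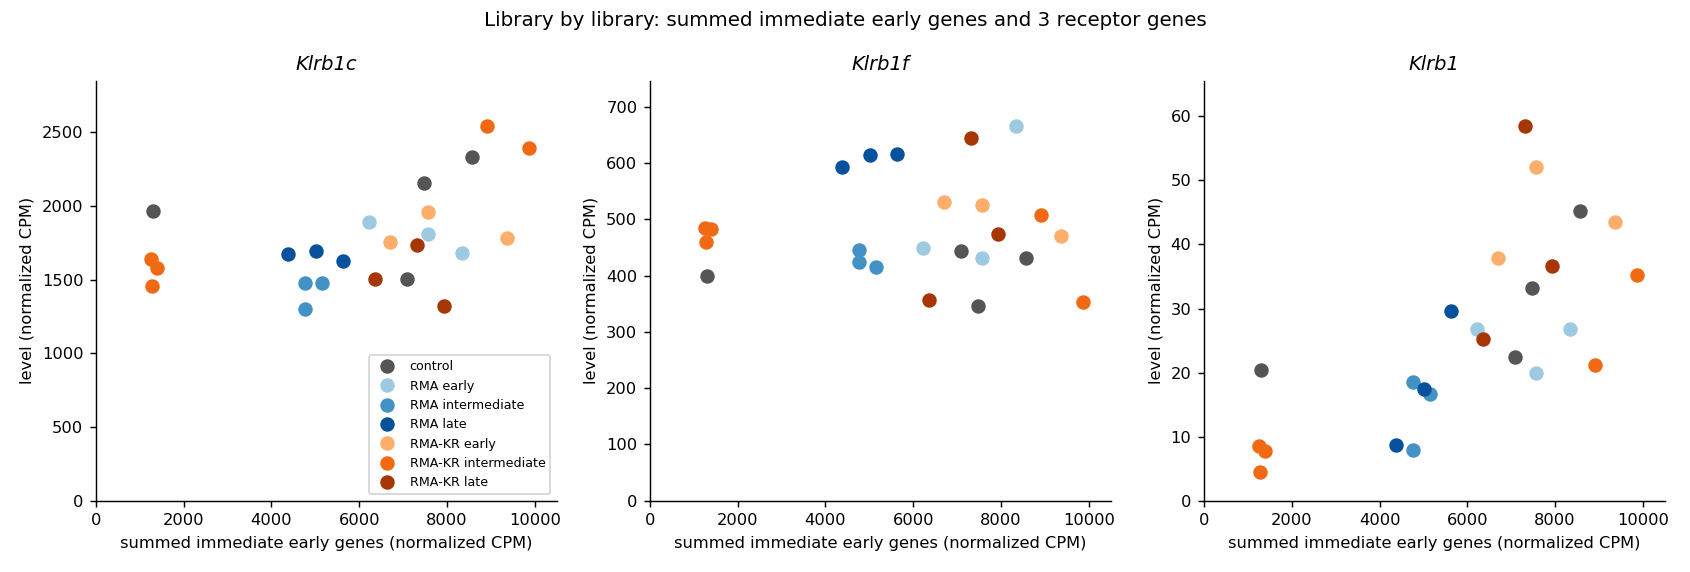
Summed level of 14 immediate early genes on the horizontal axis against the level of Klrb1c, Klrb1f and Klrb1 on the vertical axis, in CPM, 1 point for each library and 1 color for each group. The 4 libraries with sums of 1253 to 1391 CPM lie apart from the other 20, and 3 of them have 1643, 1578 and 1459.8 CPM of Klrb1c where RMA-KR intermediate 1 and 2 have 2394 and 2544; the other, control 4, has 1969.6, within the range of the other controls (1505 to 2331).

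Within a model, the course from day 2 to the late stage was tested as late against early libraries, in the fit over all 24 libraries. In RMA late against RMA early edgeR called 0 members and 2.87% of all genes tested, and DESeq2 called 0 members. By edgeR 0 members and 17.2% of all genes had an unadjusted p under 0.05. Of the members Clec2i did not overlap, beside 19.1% of all genes, with the late libraries under the early ones. Sums of immediate early genes were lower (4370 to 5628 against 6232 to 8343 CPM), sums of NK markers higher (27893 to 33075 against 21362 to 23559 CPM) and sums of T cell markers higher (467 to 596 against 303 to 455 CPM) in the late libraries. The medians of these lists were -0.51, -0.03 and 0.58 on the log2 scale, beside -0.05 for all genes, the NK median near that of all genes, and their part was not tested. In RMA-KR late against RMA-KR early edgeR called 0 members and 0.392% of all genes tested, and DESeq2 called 0 members. There 1 member, Clec2i, and 15% of all genes had an unadjusted p under 0.05 by edgeR. The Clec2i log2 change was -0.98 ± 0.45 (adjusted p = 0.321), -1.86 without RMA-KR late 1 (adjusted p = 0.0689) and -0.61 without RMA-KR late 2 (adjusted p = 0.584). Of the members Klrb1c did not overlap in that comparison, beside 15.5% of all genes, with the late libraries under the early ones. Platelet marker sums were 0.771 to 4.27 CPM in the late and 13.5 to 17.5 CPM in the early libraries, with 0 of 3 called and a median of -1.92 beside -0.10 for all genes, and their part was not tested. The courses of the 2 models from day 2 to the late stage were also tested against each other. In that test edgeR called 0 members and 0% of all genes, with 0 members at an unadjusted p under 0.05, and DESeq2 called 0.

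A joint test asked of each gene whether its level differed anywhere among the 7 groups. edgeR called 0 of 6 members and 5.69% of all genes tested, and DESeq2 called 0 members. Of the members 1, Klrb1a, had an unadjusted p under 0.05 by edgeR. Adjusted p-values were 0.205 for Klrb1a, 0.242 for Klrb1f, 0.271 for Clec2i, 0.293 for Klrb1c, 0.73 for Klrb1b and 0.87 for Clec2d. Clec2i was called without RMA-KR late 1 (adjusted p = 0.046) and with no filter on low counts (0.044), and Klrb1c without the 4 libraries that stood apart (0.035).

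Because activating and inhibitory receptors act together, Klrb1c was also set against Klrb1b within each library, a ratio that library scaling does not touch and that was not tested. The log2 ratio of Klrb1c to Klrb1b counts was 3.46, 3.59, 3.69 and 3.34 in the controls, or 3.52 ± 0.15 (SD, n = 4). It was 3.79, 4.13 and 4.12 in the RMA-KR early libraries, above every control, and 2.70, 3.22 and 3.21 in the RMA intermediate libraries, under every control. As plain ratios these are 10.1 to 12.9 Klrb1c reads for each Klrb1b read in the controls, 13.8 to 17.5 at RMA-KR early and 6.48 to 9.31 at RMA intermediate. How often the ratio of other gene pairs lies apart in the same way was not determined. RMA-KR late libraries differed most from each other, at 2.28, 4.37 and 3.31 on the log2 scale, and the other groups averaged 3.36 ± 0.12 (RMA early), 3.25 ± 0.38 (RMA late) and 3.61 ± 0.49 (RMA-KR intermediate). The last group was split, with 4.24 and 3.81 in libraries 1 and 2, above every control, and 3.50, 2.90 and 3.60 in libraries 3, 4 and 5, which stood apart. Without the 4 libraries that stood apart, a choice made after seeing the data, it was 4.02 ± 0.30 (n = 2) and the controls 3.58 ± 0.12 (n = 3).

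**Figure D5:**
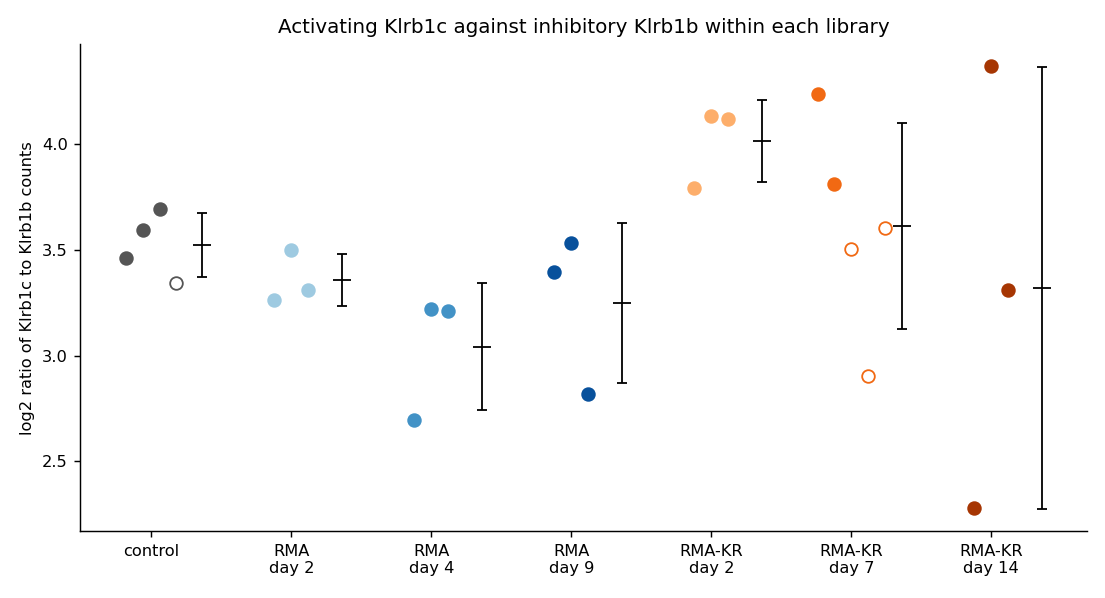
Log2 ratio of Klrb1c to Klrb1b counts in each library on the vertical axis, by group on the horizontal axis. Points are libraries, open points the 4 libraries with low immediate early genes, and bars the group mean with SD; the 3 RMA-KR early libraries (3.79 to 4.13) lie above the 4 controls (3.34 to 3.69).

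The partners through which these receptors signal were followed as a list of 14 genes, all tested, among them the adaptor Fcer1g of NKR-P1C and the phosphatase Ptpn6 recruited by inhibitory receptors. With edgeR 0 of 14 were called in any of the 6 comparisons with control. The most abundant was the kinase Lck, at a mean of 1949.5 CPM. In RMA late against RMA early 1 of 14 was called, the kinase Zap70, higher by 0.77 ± 0.17 on the log2 scale (adjusted p = 0.0171, 3 of 3 libraries above the early ones), and Zap70 was also the 1 gene called in the joint test (adjusted p = 0.0158). Of all genes tested, 2.87% were called in RMA late against RMA early and 5.69% in the joint test. With each library left out in turn, a choice made after seeing the data as for the lists below, the joint call held in 24 of 24 fits and the call against RMA early in 2 of 6, not without RMA early 1 or 3 or RMA late 1 or 2 (adjusted p up to 0.121).

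Other lectin-like receptors are encoded next to the Klrb1 and Clec2 genes, and 21 of 29 listed were tested, with Klrk1 the most abundant at 2267 CPM. In RMA intermediate against control 2 of 21 were called, both lower, beside 2.35% of all genes tested. They were activating Klrc2 (log2 fold change -1.05, adjusted p = 0.0141) and Klra8, the receptor Ly49H (-0.77, adjusted p = 0.0428), while the Klrb1c change in the same libraries was -0.49. The median of the list was -0.46 beside -0.29 over all genes. In RMA late against control 3 of 21 were called, all higher, beside 2.66% of all genes tested. They were Klrg1 (1.18, adjusted p = 0.0489), Klra1 (0.97, adjusted p = 0.0158) and Klra7 (1.31, adjusted p = 0.00103), with a list median of 0.06 beside -0.18. In RMA-KR late against control Klra7 was called (0.99, adjusted p = 0.0151), beside 1.22% of all genes tested. In all of these, each tumor library lay on the same side of every control. In RMA late against RMA early Klra1 (0.90) and Klra7 (1.31) were called, beside 2.87% of all genes tested. The joint test called Klrc2, Klra1, Klra7 and Klra10, beside 5.69% of all genes tested, and 0 of 21 were called by edgeR in the remaining comparisons. With each library of the compared groups left out in turn, Klra7 was called at RMA late in 7 of 7 fits against control and 6 of 6 against RMA early. The other calls were lost in some fits. Klrc2 was not called without control 3 or RMA intermediate 2 or 3 (adjusted p up to 0.129), and Klra7 at RMA-KR late not without control 1, 2 or 4 or RMA-KR late 1 (up to 0.148). Klra1 was not called against control without control 1 or 4 or RMA late 1 or 2 (up to 0.138), nor against RMA early without any RMA early library or RMA late 1 or 2 (up to 0.215). Klra8 was called only without control 4, and Klrg1 only without control 3. The joint calls held in 24 of 24 fits for Klra7 and Klra10, 22 for Klra1, not without RMA late 1 or 2, and 21 for Klrc2, not without RMA early 1 or RMA intermediate 2 or 3. Without the 4 libraries that stood apart, Klra1 in all 3 tests (adjusted p = 0.0809, 0.0766 and 0.119) and Klra7 at RMA-KR late (0.0529) were not called.

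Of 13 immediate early genes tested, led by Junb, edgeR called Egr1 in RMA-KR late against control (1.84, adjusted p = 0.0151, 3 of 3 libraries above all controls) and Fosb in RMA late against RMA early (-2.76, adjusted p = 0.0378, 3 of 3 below), and both in the joint test. Egr1 was not called in that comparison without control 4, which stood apart in these genes (1.71, adjusted p = 0.0709), control 3 (1.65, 0.0712) or RMA-KR late 3 (1.47, 0.103), nor without the 4 libraries that stood apart (1.77, 0.0656). Fosb was not called without RMA early 1 or 2 or RMA late 1 or 2 (adjusted p up to 0.209). For these and the marker calls that follow, edgeR called these shares of all genes tested. Against control they were 2.35% at RMA intermediate, 2.66% at RMA late and 1.22% at RMA-KR late. In RMA intermediate against RMA-KR intermediate edgeR called 0.643%, in RMA late against RMA early 2.87% and in the joint test 5.69%. Among NK markers it called Gzmb, higher at RMA intermediate (1.44, adjusted p = 0.00834) and RMA late (1.18, adjusted p = 0.0293) than in the controls, and Eomes, lower at RMA late (-0.75, adjusted p = 0.0352), each with the groups apart. Gzmb was also called in RMA intermediate against RMA-KR intermediate (1.51) and Eomes in RMA late against RMA early (-0.79). Of the T cell markers Trbc2 was called in RMA late against RMA early (0.74, adjusted p = 0.0323). With each library of the compared groups left out, Gzmb was called at RMA intermediate in 6 of 7 fits against control, not without control 1 (1.24, adjusted p = 0.0533), and in 8 of 8 against RMA-KR intermediate, but at RMA late in 2 of 7, without control 3 or RMA late 3. Eomes was called in 2 of 7 fits against control, without control 2 or 3, and in 0 of 6 against RMA early, and Trbc2 in 1 of 6, without RMA late 3. Without the 4 libraries that stood apart, Gzmb at RMA late (adjusted p = 0.0635) and against RMA-KR intermediate (0.0973), Eomes against control (0.0771) and Trbc2 (0.0776) were not called. The joint test called Gzmb, Eomes, Trbc1 and the plasma cell marker Igha. With each library left out in turn these joint calls held in 24, 9, 17 and 21 of 24 fits, and those of Egr1 and Fosb in 20 and 6. Igha was tested in 23 of them and not called without RMA-KR early 1 or RMA-KR intermediate 5. Without the 4 libraries the joint test called Gzmb and Fosb of these. With all 24 libraries, of the ILC1, macrophage, granulocyte, red blood cell and platelet markers 0 were called by edgeR in any comparison.

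The genes whose levels went most nearly in parallel with each member were looked for among 9471 genes over the 24 libraries, as Pearson's r of log2 CPM, which libraries of 1 group and shared library quality can raise. For Klrb1c these were Pnrc2 (0.824), Dok2 (0.813) and Selenop (0.791), and without the 4 libraries that stood apart r was 0.851, 0.844 and 0.772. For Klrb1f they were Rsu1 (0.692), Mndal (0.688) and Trbc1 (0.669). The ligand Clec2i went with Ctla2a (0.763), Cracr2a (0.743) and Ppcdc (0.741), and Clec2d with Jmjd4 (0.703), Sdf2 (0.672) and the ILC1 marker Tnfsf10 (0.668). Klrb1a went with Uqcrb (0.764), Rhot1 (0.755) and Ndufaf5 (0.709). For Klrb1b, with Nagk (0.610), Sla (0.604) and Anapc7 (0.602), 0 of the 3 were among the 3 nearest genes by Spearman's rho. Over the 15 pairs of members r ran from -0.154 for Klrb1c with Klrb1f to 0.478 for the ligand Clec2d with its receptor Klrb1b. Clec2d had 0.442 with Klrb1a as well, and Clec2i had 0.338 with Klrb1c and 0.299 with its receptor Klrb1f.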

How the data were processed

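NK cells were sorted from mouse spleen and their RNA sequenced in 24 libraries. Per gene, the table deposited by the authors holds read counts, whole numbers without normalization, made with cutadapt 1.10, Bowtie2 2.2.8, STAR 2.5.3a and HTSeq 0.6.1p1 in union mode on mm10 with Ensembl genes. The table has 112 columns, of which the 24 count columns were used. Another 48 columns of other values per library were not used, nor were 29 columns holding the fold changes and p-values of the authors' own comparisons.

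Groups came from the sample labels. The software was R 4.3.3, with DESeq2 1.42.0, limma 3.58.1 and edgeR 4.0.16. The filter was filterByExpr on the 7 groups, which 17097 genes passed. Counts were scaled with TMM, and fitted with 1 mean per group, using robust dispersion estimates, over all 24 libraries. Contrasts were tested with edgeR's 2-sided quasi-likelihood test and Benjamini-Hochberg adjustment, and called under 0.05. The procedure was tested on simulated data. Likeness used Pearson's r of log2 CPM (prior count 2) among genes with a mean of at least 5 CPM. The ratio of Klrb1c to Klrb1b used a pseudocount of 0.5.

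Genes named are the 6 members, other Klrb1 and Clec2 genes, called genes of the lists (signaling partners, lectin-like genes, immediate early genes and markers of 9 cell types), the most abundant gene of each marker list, and the 3 genes most like each member. One listed marker, and the sums and calls of its list, are not reported here. The members and lists were chosen with earlier results of these data known. Promoter windows came from RefSeq on GRCm38.p6, and shared stretches of transcripts were found with Python 3.11.15 in the GENCODE annotation of the same assembly.

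Alternatives were DESeq2's size factors, DESeq2 with default settings and with betaPrior=TRUE, the authors' setting, no filter, a minimum of 10 counts per library, a block for the replicate number, the compared groups alone, an added fold change limit of 2, each library left out, a ratio pseudocount of 5, Spearman correlation, and, chosen after seeing the data, 4 libraries left out and, for called genes of the lists, group means and folds between libraries, each library left out.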

Additional observations from a re-analysis of the deposited data

How the results depend on the processing

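With edgeR, 0 of 6 members were called in each of 13 comparisons. The count became 1 in RMA intermediate against control (Klrb1c) with DESeq2 by default (log2 fold change -0.50), with betaPrior (-0.48) and with at least 10 counts in every library (-0.51), and 1 in RMA late against control (Klrb1f) with DESeq2 by default (0.58), with betaPrior (0.55) and with the compared groups alone (0.63). It became 1 in RMA intermediate against RMA-KR intermediate (Klrb1c, -0.80) without the 4 libraries low in immediate early genes, chosen after seeing the data. In the joint test it was 1 without those 4 libraries (Klrb1c), 1 with no filter (Clec2i) and 0 to 1 with each library left out, where RMA-KR late 1 made Clec2i called. DESeq2 with betaPrior gave no joint test and no test of the difference between courses. Except where fewer genes or libraries were tested, the cause was not tested.

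With the replicate number as a block, 0 members were called in all 13 comparisons, and 2 small log2 fold changes turned sign, Klrb1c at RMA-KR intermediate to 0.018 and Clec2d at RMA late to 0.081. Nothing shows that the numbers pair libraries, since 64 pairs with the same number had a mean correlation of deviations of -0.00442 (-0.118 to 0.202), and 6 of 24 libraries were closest to their own number.

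Other reversals against control were of values between -0.10 and 0.12, and of Clec2d at RMA-KR late (-0.31). Clec2d at RMA-KR intermediate became 0.0095 with DESeq2's size factors, 0.0036 with DESeq2 by default, 0.0079 with betaPrior and 0.0042 with at least 10 counts, Clec2d at RMA late 0.030 with the compared groups alone, Klrb1b at RMA intermediate -0.00044 with at least 10 counts, and Klrb1c at RMA-KR intermediate 0.33 without the 4 libraries. With each library left out in turn, ranges crossed 0 for Klrb1b (-0.042 to 0.16) and Clec2i (-0.032 to 0.21) at RMA early; for Klrb1a (-0.20 to 0.057), Klrb1b (-0.17 to 0.21), Klrb1f (-0.026 to 0.14) and Clec2d (-0.23 to 0.39) at RMA intermediate; for Klrb1a (-0.19 to 0.0040), Klrb1c (-0.17 to 0.033) and Clec2d (-0.27 to 0.29) at RMA-KR intermediate; for Klrb1b (-0.13 to 0.21) and Clec2d (-0.28 to 0.27) at RMA late; and for Klrb1b (-0.75 to 0.54) and Clec2d (-0.56 to 0.00023) at RMA-KR late. The cause was not tested. The other log2 fold changes of members against control kept their direction. By Spearman correlation 0 of the 3 genes most like Klrb1b were shared. DESeq2's size factors moved the median log2 fold change of all genes by -0.08 to 0.07. Clec2d had the widest standard errors of the members, 0.44 to 0.50 against control, and the largest variation between libraries as fitted by edgeR, 45.2%.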
